A study of Mus musculus with 4 samples.

Results

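The Merkel cell genes followed here were Atoh1, Isl1, Sox2, Krt20, Piezo2, Snap25, Ccer2, Miat, Pde1c and Nrxn3. All 10 were found by symbol among the 56980 genes of the deposited feature lists. They were chosen with results of these data in view, from the same contrast of triple knockout (TKO) against control (Ctrl) epidermis, so their differences between genotypes are given as a description without a test. Droplet libraries of single cells were made from dorsal skin epidermis of mouse embryos labelled E16.5, with 2 libraries per genotype and 1 embryo per library. All embryos were Suv39h1 f/f, Suv39h2-/- and Setdb1 f/f and were exposed to Tamoxifen, so that the Ctrl embryos also lacked Suv39h2. The TKO embryos in addition carried K14CreERT2, a recombinase driven by the keratin 14 promoter of basal keratinocytes, which the Ctrl embryos did not carry. Suv39h1, Suv39h2 and Setdb1 are the methyltransferases that place the repressive mark H3K9me3. The study describes deletion by this driver as mosaic, and its list of litters gives another embryonic day for the single-cell litter than the labels do. Cells had been sorted as Epcam+ α6+ basal cells.

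Merkel cells are mechanosensory cells of the epidermis that arise from keratin 14-positive progenitors and sit in touch domes, where they contact sensory nerve endings. Their fate depends on the basic helix-loop-helix factor Atoh1, which binds E-box sequences, and the factors Sox2 and Isl1 act with it. Mature Merkel cells carry keratins of simple epithelia, among them Krt8, Krt18 and Krt20, open the Piezo2 channel on touch, and release transmitter through a presynaptic machinery to which Snap25 belongs.

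The genes lie at separate loci of the GRCm39 build, which the deposited files used. Atoh1 is at chromosome 6, 64706109 to 64708229, Isl1 at chromosome 13, 116434817 to 116446235, Sox2 at chromosome 3, 34704554 to 34706610, and Krt20 at chromosome 11, 99319227 to 99328985. Ccer2 is at chromosome 7, 28455564 to 28458393, Snap25 at chromosome 2, 136533580 to 136624362, and the long noncoding RNA gene Miat at chromosome 5, 112361094 to 112377261. Pde1c (chromosome 6, 56046784 to 56629472) and Nrxn3 (chromosome 12, 88689646 to 90301709) are long genes, as is Piezo2. In GENCODE vM39, 5 of the 10 overlap another gene on their own strand (Sox2, Piezo2, Miat, Pde1c and Nrxn3), and how reads were divided there was not tested.

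Because Atoh1 binds E-boxes and was not detected in TKO, the 250 bases before the annotated start sites were searched for CAGCTG, an E-box that reads the same on both strands. RefSeq promoters of build GRCm38.p6 were at hand for 8 of the 10 genes, with 12 start sites in all. CAGCTG was present once in 3 of these 12 windows, those of Isl1 and Ccer2 and 1 of the 3 of Pde1c, which is 25% of them. Of all 32851 RefSeq promoter windows of this length, 13.0% held it. A second E-box, CAGATG on either strand, was in 0 of the 12 windows and in 14.4% of all windows. The windows with a match are shown with that of Atoh1 itself, which had none; CAGCTG is in capitals, each sequence runs 5′ to 3′ on the strand of its gene, and a match describes letters, not binding.
Isl1 (chr13:116309689-116309938, minus strand): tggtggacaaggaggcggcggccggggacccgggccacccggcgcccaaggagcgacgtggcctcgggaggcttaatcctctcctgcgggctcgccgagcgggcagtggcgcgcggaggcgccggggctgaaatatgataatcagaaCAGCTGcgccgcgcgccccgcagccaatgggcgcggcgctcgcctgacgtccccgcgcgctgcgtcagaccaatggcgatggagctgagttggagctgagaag
Ccer2 (chr7:28755924-28756173, plus strand): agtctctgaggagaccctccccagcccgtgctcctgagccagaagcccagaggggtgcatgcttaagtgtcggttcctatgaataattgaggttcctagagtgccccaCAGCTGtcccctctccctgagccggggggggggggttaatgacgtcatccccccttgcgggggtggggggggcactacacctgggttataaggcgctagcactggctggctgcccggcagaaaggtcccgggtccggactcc
Pde1c (chr6:56362811-56363060, minus strand): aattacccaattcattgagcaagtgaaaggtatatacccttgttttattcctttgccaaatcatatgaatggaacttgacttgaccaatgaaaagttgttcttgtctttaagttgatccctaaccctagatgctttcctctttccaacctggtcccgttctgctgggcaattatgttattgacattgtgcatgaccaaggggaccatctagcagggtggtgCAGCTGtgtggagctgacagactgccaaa
Atoh1 (chr6:64728875-64729124, plus strand): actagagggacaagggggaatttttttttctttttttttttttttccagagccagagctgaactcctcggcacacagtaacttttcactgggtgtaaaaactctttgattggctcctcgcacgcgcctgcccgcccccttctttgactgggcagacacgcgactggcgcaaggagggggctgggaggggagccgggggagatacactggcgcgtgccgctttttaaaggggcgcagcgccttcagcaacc
The match began 103 bases before the start site in Isl1, 142 bases before it in Ccer2 and 29 bases before it in Pde1c.

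The 4 libraries held 19789 deposited barcodes, between 3804 and 5785 each, and 11221 passed a filter of at least 2000 genes and under 10% mitochondrial UMIs. Of these, 9362 were called epithelial from a panel of 8 keratins, namely 2893 and 3093 in Ctrl replicates 1 and 2 and 1555 and 1821 in TKO replicates 1 and 2. Their summed UMIs ran from 53333383 to 73153004 per library. The median depth per epithelial barcode was 22761 and 17717 UMIs in Ctrl and higher in TKO, at 30769 and 28304. Between 0 and 4 epithelial barcodes were shared by any pair of libraries. Levels over summed barcodes are given as CPM, the UMIs of a gene per 1000000 UMIs. The targeted genes did not pass the test at this level: Setdb1 had 67.3 and 58.0 CPM in Ctrl and 39.4 and 42.2 in TKO (edgeR log2 change -0.63, SE 0.13, adjusted p 0.0508), and Suv39h1 and Suv39h2 had adjusted p-values of 0.519 and 0.414. Counting of 3′ ends can include transcripts without the deleted exons, so these values do not check the labels. Libraries came from separate embryos, but with 2 per genotype an exact two-sided permutation test of a single value cannot go below p 0.3333, and none was used.

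The genes marked a small set of barcodes in Ctrl that had almost no counterpart in TKO. An epithelial barcode was called Merkel-like where at least 3 of the 10 genes had a UMI. This held for 37 of 2893 barcodes in Ctrl replicate 1 (1.28%, exact Clopper-Pearson 95% interval 0.902 to 1.76) and 35 of 3093 in Ctrl replicate 2 (1.13%, interval 0.789 to 1.57). In TKO it held for 1 of 1555 barcodes in replicate 1 (0.0643%, interval 0.00163 to 0.358) and 0 of 1821 in replicate 2 (interval 0 to 0.202, while the limit set by 3 counts of the total is 0.165%). These intervals and limits cover counting error only. The share was thus 1.21% ± 0.104 in Ctrl and 0.0322% ± 0.0455 in TKO (SD, n = 2 libraries each), and since the genes define the class this difference is no test of them.

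The single TKO barcode did not carry the set. It had 130860 UMIs, far above the medians of its library, with 3 UMIs of Piezo2, 2 of Pde1c, 1 of Nrxn3 and 0 of each of the other 7 genes. Most Ctrl Merkel-like barcodes with only 3 or 4 of the genes likewise had 0 UMIs of Atoh1, Isl1, Ccer2 and Miat. They are counted in the Ctrl share. Counted from the genes other than Piezo2, at least 3 were present in 33 and 32 Ctrl barcodes and in 0 and 0 TKO barcodes. When each barcode was thinned to 5000 UMIs, so that the deeper TKO barcodes had no advantage, at least 3 genes remained in 30 of 2875 and 30 of 3060 Ctrl barcodes and in 0 of 1552 and 0 of 1817 TKO barcodes. The exact upper ends for the TKO libraries were then 0.237% and 0.203%, and the lower ends of the Ctrl intervals 0.705% and 0.662%. These intervals too cover counting error within a library only. The gap is no test of genotype, because the class is defined by genes chosen from this contrast.

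The number of genes per barcode fell into separate ranges in Ctrl. Most epithelial barcodes had 0 or 1 of the genes, 95 and 46 Ctrl barcodes had 2, and 4 and 6 had 3 or 4. A further 33 and 29 Ctrl barcodes had 5 or more, and 9 and 8 of those had all 10. In TKO, 23 and 6 barcodes had 2, and none had 4 or more. Among all deposited barcodes, whatever their quality or class, 50 and 36 in Ctrl and 0 and 0 of 3804 and 4557 in TKO had at least 5 genes.

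**Figure D1:**
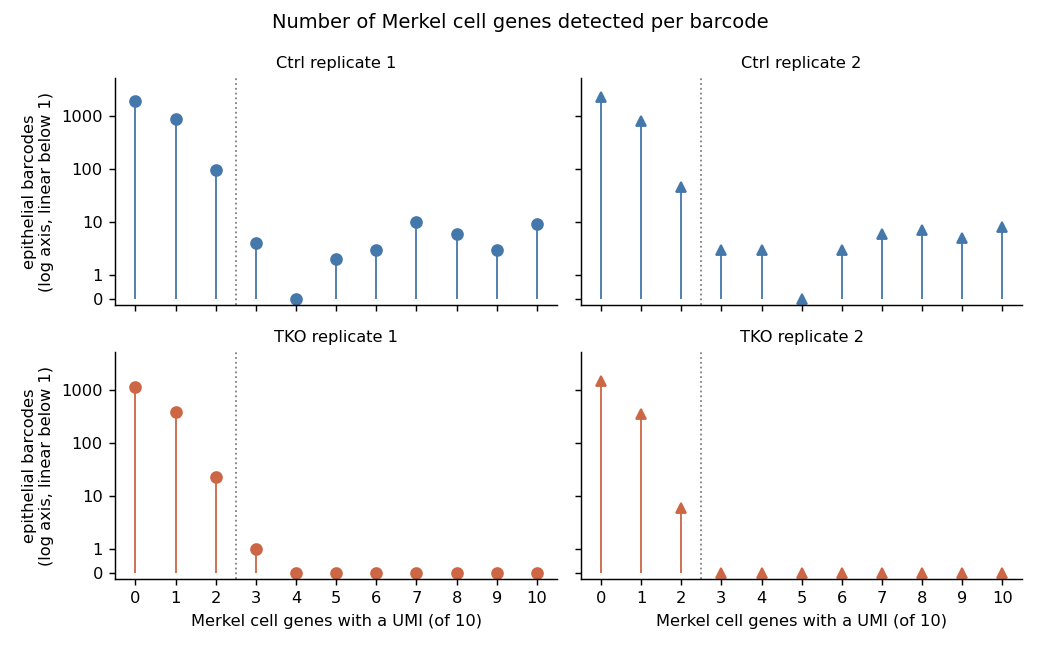
Epithelial barcodes of each library (vertical axis, log scale, linear below 1) by how many of the 10 Merkel cell genes had a UMI in them (horizontal axis), with the Merkel-like limit of 3 as a dotted line. Both Ctrl libraries have a second set of barcodes with 5 to 10 genes, and the TKO libraries have 1 barcode with 3 and none with more.

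Markers outside the 10 genes were checked in these barcodes. Of them, Krt8 and Krt18 had a part in the choice, because both are in the panel of 8 keratins that called barcodes epithelial. Pou4f3, a transcription factor of Merkel and hair cells, had a UMI in 32 of 37 and 30 of 35 Ctrl Merkel-like barcodes, and Krt8 in 32 and 31. At least 3 of 12 Merkel markers were present in 32 and 30 of the Merkel-like barcodes. The 12 are called independent because none is among the 10 genes, although they include Krt8 and Krt18. The reverse was less specific in TKO, where 13 and 6 epithelial barcodes had at least 3 of the 12, at median depths of 40059 and 45212 UMIs. None of these TKO barcodes was Merkel-like by the 10 genes, none had a UMI of Pou4f3 or Gfi1, and 13 of 13 and 5 of 6 had Hes6, which other epithelial barcodes also express. Krt8 was present in 5 of 13 and 4 of 6 of them, Krt18 in 10 and 4 and Rab3c in 3 and 4. The name therefore rests on Pou4f3 in Ctrl, since Krt8 also took part in calling barcodes epithelial. The TKO barcodes chosen by the broader list shared keratins with the Merkel-like barcodes but not Pou4f3.

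A few barcodes below the keratin minimum of 1000 CPM carried part of the set. There were 4 in Ctrl replicate 1 (4776 to 6813 UMIs each) and 1 in Ctrl replicate 2 with at least 5 of the genes, against 0 and 0 in TKO. All 5 had Isl1, but Atoh1 was present in 0 of the 4 and in the 1 of replicate 2, whereas 59 of the 62 epithelial barcodes with at least 5 genes had it. The 5 barcodes are not counted in the shares above.

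Over the summed epithelial barcodes, in which fewer cells of a type and less RNA per cell cannot be told apart, all 10 genes were lower in both TKO libraries than in both Ctrl libraries. In the edgeR fit over 20064 genes, 9 of the 10 were past the threshold, where 6.2% of all genes were called, 2.27% lower and 3.93% higher, and for 27.4% of all genes both TKO libraries lay below both Ctrl libraries. The rule that chose the genes used this contrast, so their counts say no more than that. The exception was Krt20.

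Of the transcription factors, Atoh1, which specifies the Merkel lineage, had 269 and 220 UMIs in Ctrl against 0 and 0 in TKO. It was also at 0 in every deposited TKO barcode, whether epithelial or not. With a floor of 3 UMIs over both TKO libraries, Atoh1 was at least 132-fold lower. Isl1, a LIM homeodomain factor, had 336 and 256 UMIs in Ctrl against 0 and 1 in TKO. Sox2, an HMG-box factor of progenitors and Merkel cells, had 339 and 263 UMIs in Ctrl against 22 and 6 in TKO, or 4.44 ± 0.275 and 0.260 ± 0.216 CPM. Atoh1 and Isl1 were thus at or near 0 in TKO, and Sox2 was low but present.

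Krt20, a keratin of the mature Merkel cell, was the rarest of the genes. It had 48 and 44 UMIs in Ctrl, in 13 and 17 barcodes, and 15 and 4 in TKO, in 6 and 2 barcodes. Of the 15 UMIs in TKO replicate 1, 10 came from 1 barcode. The groups did not overlap, but the counts were small.

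Piezo2, the touch-gated ion channel, changed least. It had 2026 and 1883 UMIs in Ctrl against 844 and 594 in TKO, which is 27.7, 30.4, 15.8 and 10.6 CPM (a 2.2-fold difference of means). Snap25, a SNARE protein of transmitter release, had 231 and 189 UMIs in Ctrl against 17 and 9 (3.10 ± 0.0760 and 0.240 ± 0.112 CPM, 12.9-fold). Nrxn3, a presynaptic adhesion protein, had 1098 and 596 against 42 and 23 (12.3 ± 3.81 and 0.599 ± 0.266 CPM, 20.6-fold). The sensory and synaptic genes were thus lower but still measured in TKO.

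Ccer2, which encodes a coiled-coil protein, was the most abundant of the genes and differed most among those still detected. It had 8797 and 6855 UMIs in Ctrl against 6 and 6 in TKO, or 115 ± 6.80 and 0.110 ± 0.00379 CPM, a 1051-fold difference. The noncoding RNA Miat had 1085 and 668 UMIs against 1 and 21, so that its TKO libraries differed from each other more than those of any other gene relative to their mean, apart from Isl1. Pde1c, a calmodulin-dependent phosphodiesterase that degrades cyclic nucleotides, had 823 and 732 against 22 and 17 (11.5 ± 0.399 and 0.358 ± 0.0770 CPM, 32.2-fold).

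**Figure D2:**
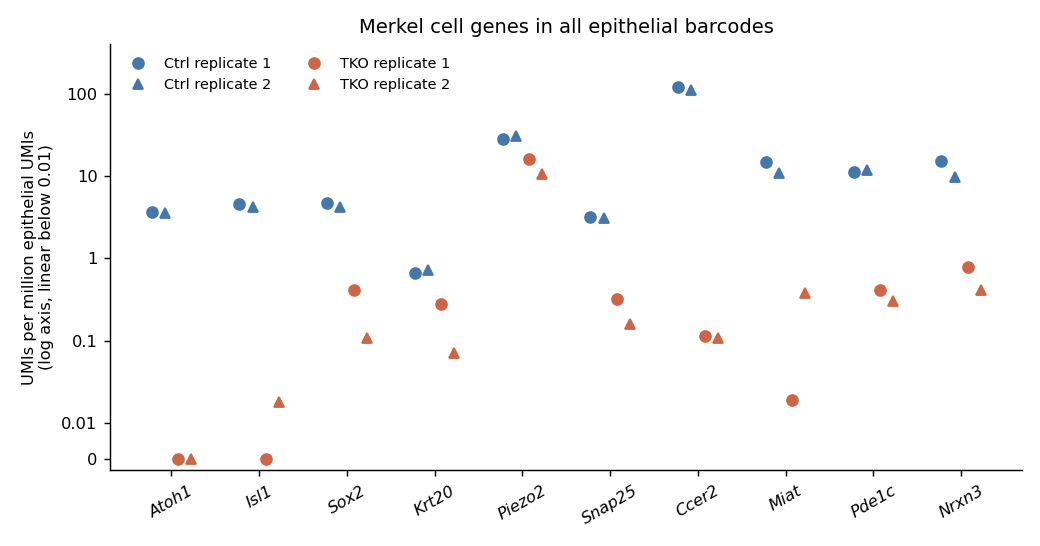
Level of each Merkel cell gene in each library (points), as CPM over all epithelial barcodes, on an axis that is logarithmic above 0.01 and linear below. For all 10 genes both TKO libraries lie below both Ctrl libraries, with Atoh1 at 0 in both and Piezo2 the closest.

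The differences were then split by whether the UMIs lay in Merkel-like barcodes or in other epithelial barcodes. The genes define the Merkel-like barcodes, so a Merkel cell without UMIs of the genes would count as a missing barcode. The split therefore cannot tell loss of such cells from loss of their expression. In Ctrl, 99.4% and 99.5% of the epithelial UMIs of Ccer2 were in Merkel-like barcodes, although these held 1.28% and 1.32% of all epithelial UMIs. The shares were 99.3% and 97.7% for Atoh1, 97.3% and 96.9% for Isl1, 95.3% and 95.1% for Pde1c and 96.7% and 93.5% for Nrxn3. They were lower for Miat (84.1% and 93.4%), Sox2 (76.4% and 77.2%) and Snap25 (64.5% and 77.8%). Piezo2 stood apart with 30.6% and 25.5%, so that most of its epithelial UMIs came from other barcodes. Choosing the barcodes for each gene by at least 3 of the other 9 genes kept 267 and 215 Atoh1 UMIs and 612 and 471 Piezo2 UMIs inside, close to the 267, 215, 619 and 481 of the common choice.

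The difference in CPM between genotypes could be split in the same way. Merkel-like barcodes accounted for 98.5% of it for Atoh1, 97.3% for Isl1, 99.5% for Ccer2, 98.1% for Pde1c and 89.4% for Miat. For Sox2 the share was 81.5%, for Snap25 77.0% and for Piezo2 51.1%. For Nrxn3 and Krt20 it was 100.2% and 124%, because their levels outside were not lower in TKO. Merkel-like barcodes thus held nearly the whole difference for Atoh1, Isl1, Ccer2, Pde1c and Nrxn3, and about equal parts lay inside and outside for Piezo2. Because the genes define the class, these shares place the difference and do not tell lost cells from lost expression.

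Outside the Merkel-like barcodes, 8 of the 10 genes had both TKO libraries below both Ctrl libraries, where 26.3% of all genes did. In the fit over 19964 genes without these barcodes, 7 of the 10 had enough counts to be fitted, and 1 of them, Ccer2, was past the threshold, where 5.32% of all genes were called, 1.75% lower and 3.57% higher. Atoh1, Isl1 and Krt20 fell below the filter on low counts once the Merkel-like barcodes were left out. The 7 fitted genes therefore do not stand for all 10.

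Piezo2 outside had 19.5 and 22.9 CPM in Ctrl (Poisson intervals 18.5 to 20.5 and 21.7 to 24.2) and 15.8 and 10.6 in TKO (14.8 to 16.9 and 9.77 to 11.5). The fitted log2 change fell from -1.15 (SE 0.19) with the Merkel-like barcodes to -0.71 (SE 0.21) without them, and the latter was -0.99 or -0.46 when TKO replicate 1 or 2 was left out. Its groups did not overlap, and the 2 TKO libraries differed from each other by more than the Ctrl libraries did. By class, with barcodes sorted into ranges of summed suprabasal and hair follicle markers rather than types, Piezo2 had 24.8 and 22.3 CPM in the basal range of Ctrl and 17.7 and 12.5 in TKO. In the hair follicle range it had 32.1 and 37.6 CPM in Ctrl and 16.8 and 15.1 in TKO, a 2.19-fold difference, and in the suprabasal range 3.32 and 3.36 against 1.22 and 0.856. Both TKO libraries lay below both Ctrl libraries in each of the 3 ranges.

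Sox2 outside had 80 and 60 UMIs in Ctrl against 22 and 6 in TKO, or 1.11, 0.981, 0.413 and 0.107 CPM (log2 change -2.04, SE 0.57). The TKO libraries decided its size, at -3.25 with replicate 1 left out and -1.37 with replicate 2 left out, and at 5000 UMIs per barcode it was -1.35. In the basal range it had 1.35 and 0.851 CPM against 0.319 and 0.121. In the hair follicle range the groups overlapped, with 1.0 and 1.81 CPM in Ctrl and 1.34 and 0.0885 in TKO. Snap25 outside had 82 and 42 UMIs in Ctrl against 17 and 9 in TKO (log2 change -1.96, SE 0.48), and its TKO libraries were lower in all 3 ranges, with 0 UMIs in the suprabasal range. Both genes thus differed outside the Merkel-like barcodes by several-fold at levels near or below 1 CPM.

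Miat outside had 172 and 44 UMIs in Ctrl against 1 and 21 in TKO. Its UMIs were mostly in the suprabasal range, at 5.79 and 2.59 CPM in Ctrl and 0 and 1.71 in TKO, where TKO replicate 1 had 144 barcodes and the other libraries 333 to 705. Outside, the Ctrl libraries of Miat were at 2.38 and 0.720 CPM and differed from each other by more than their Poisson intervals. The number of suprabasal barcodes moved with these values, and its part in the result was not tested. The log2 change of Miat outside, -2.97 (SE 1.05), was -6.28 without TKO replicate 2 and -1.82 without Ctrl replicate 1. In the basal range Miat had 1.0 and 0.312 CPM in Ctrl and 0.0245 and 0.0303 in TKO.

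Nrxn3 overlapped between the groups outside. It had 36 and 39 UMIs in Ctrl against 41 and 23 in TKO (log2 change 0.03, SE 0.41, or -0.45 and 0.41 without TKO replicate 1 or 2), and was concentrated in the hair follicle range, at 1.77 and 2.26 CPM in Ctrl and 2.98 and 1.51 in TKO. Pde1c outside was 0.540 and 0.589 CPM in Ctrl and 0.376 and 0.304 in TKO (log2 change -0.75, SE 0.34), with overlapping Poisson intervals among all 4 libraries. The log2 change was -3.10 (SE 0.65) when each barcode was thinned to 5000 UMIs, where 1 epithelial barcode per TKO library still had a UMI of Pde1c, and without thinning it was -1.10 when barcodes with 2 of the genes were also left out. In the hair follicle range Pde1c was 0.769 and 0.710 CPM in Ctrl and 0.893 and 0.885 in TKO, from 6 to 11 UMIs per library. Krt20 outside had 0 and 7 UMIs in Ctrl against 15 and 4 in TKO, and these groups overlapped.

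**Figure D3:**
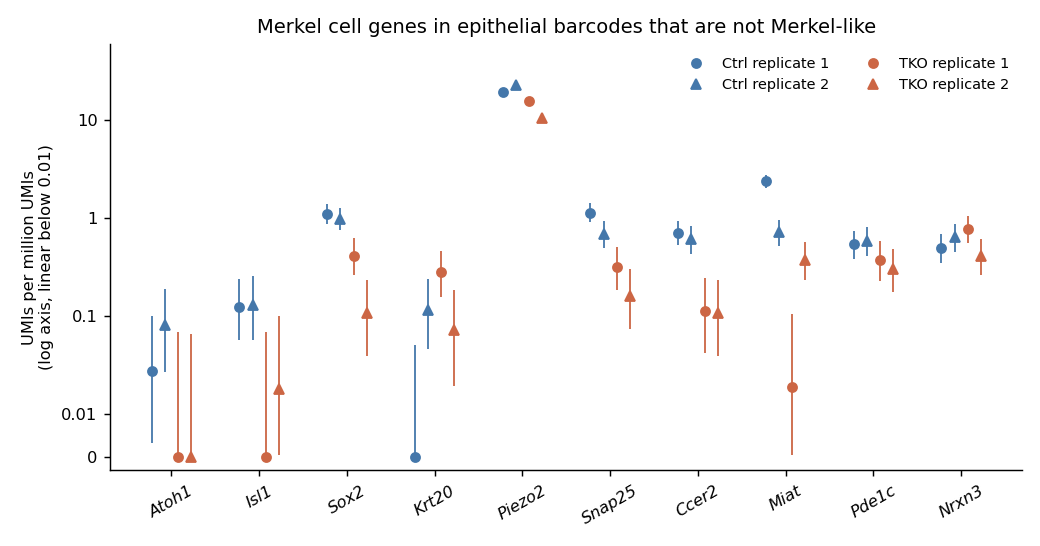
Level of each Merkel cell gene in epithelial barcodes that are not Merkel-like, per library (points, CPM, axis logarithmic above 0.01 and linear below), with exact 95% Poisson intervals (lines). Both TKO libraries lie below both Ctrl libraries for 8 genes, and the groups overlap for Krt20 and Nrxn3.

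Free RNA from lysed cells can add UMIs of abundant transcripts to any droplet, and its share was not estimated. UMIs outside were therefore set against those inside Merkel-like barcodes of Ctrl. Ccer2 had 0.583 and 0.543 UMIs outside for every 100 inside. They came 1 per barcode in Ctrl replicate 1, and in replicate 2 there were 37 UMIs in 35 barcodes with up to 3 in one. Immune barcodes, which should lack Ccer2, had 1.85 and 3.10 CPM (4 and 8 UMIs), above the 0.706 and 0.605 CPM of the other epithelial barcodes. In TKO the level outside was 0.113 and 0.107 CPM. Whether the UMIs of Ccer2 outside reflect expression was not tested. Its log2 change outside was -2.58 (SE 0.40), and at 5000 UMIs per barcode no TKO barcode kept a UMI of Ccer2.

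The ratio varied widely among the genes. For Atoh1 it was 0.749 and 2.33 per 100, from 2 and 5 UMIs outside, and for Krt20 it was 0 and 18.9, from 0 and 7 UMIs. Isl1 had 2.75 and 3.23 UMIs outside per 100 inside, Pde1c 4.97 and 5.17, Nrxn3 3.39 and 7.0 and Miat 18.8 and 7.05. Sox2 had 30.9 and 29.6, Snap25 55.0 and 28.6 and Piezo2 227 and 291. Apart from Krt20 in Ctrl replicate 1, all of these were above Ccer2 in the same library. The part of free RNA in these ratios was not tested. Sox2 was also at 0.927 and 1.16 CPM in Ctrl immune barcodes, from 2 and 3 UMIs, near its level in the other epithelial barcodes, whereas Snap25 was at 0 UMIs in immune barcodes of all 4 libraries.

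Several of the genes were also expressed outside the epithelium. Fibroblast barcodes, called from at least 5 of 8 markers, had more Piezo2 than basal barcodes, at 70.5 and 50.2 CPM in Ctrl and 103 and 79.4 in TKO. Miat was at 18.2 and 25.4 CPM in Ctrl fibroblasts and 20.6 and 12.2 in TKO fibroblasts, overlapping groups. Atoh1 was at 0 in fibroblast, immune and melanocyte barcodes of every library. Of the 8 fibroblast markers, 5 and 3 had a UMI in the Ctrl Merkel-like barcodes, at a summed 382 and 757 CPM, against 929 and 1130 CPM in all epithelial barcodes of Ctrl and 964 and 831 in TKO. Dcn gave most of the sum inside (316 and 607 UMIs), while Pdgfra, Twist2 and Col6a3 were at 0 there in both libraries. Melanocyte, neuron, Schwann and hair follicle markers were higher in the Merkel-like barcodes than in all epithelial barcodes. The 8 melanocyte markers summed to 102 and 75.7 CPM inside against 11.4 and 15.3 over all epithelial barcodes, with Mitf (62 and 26 UMIs) and Kit (33 and 32) giving most of it, while Tyrp1, Mlana, Sox10 and Gpr143 were at 0 inside in both libraries. The 8 neuron markers summed to 142 and 62.2 CPM inside against 2.65 and 1.60. Stmn2, a microtubule regulator of neurons, gave 74 of 74 and 17 of 18 of its Ctrl epithelial UMIs there, in 8 and 4 barcodes. In TKO the melanocyte markers were at 12.4 and 10.6 CPM and the neuron markers at 0.862 and 0.839 over all epithelial barcodes. The 8 immune markers summed to 4.36 and 6.55 CPM in epithelial barcodes of Ctrl and 11.5 and 11.9 in those of TKO. Endothelial markers were at 13.4 and 16.2 CPM against 32.5 and 22.9, and muscle markers at 4.54 and 5.23 against 7.61 and 7.73. Schwann markers were lower in TKO, at 92.0 and 92.5 against 82.4 and 83.6. The part of these markers in the results was not tested.

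**Figure D4:**
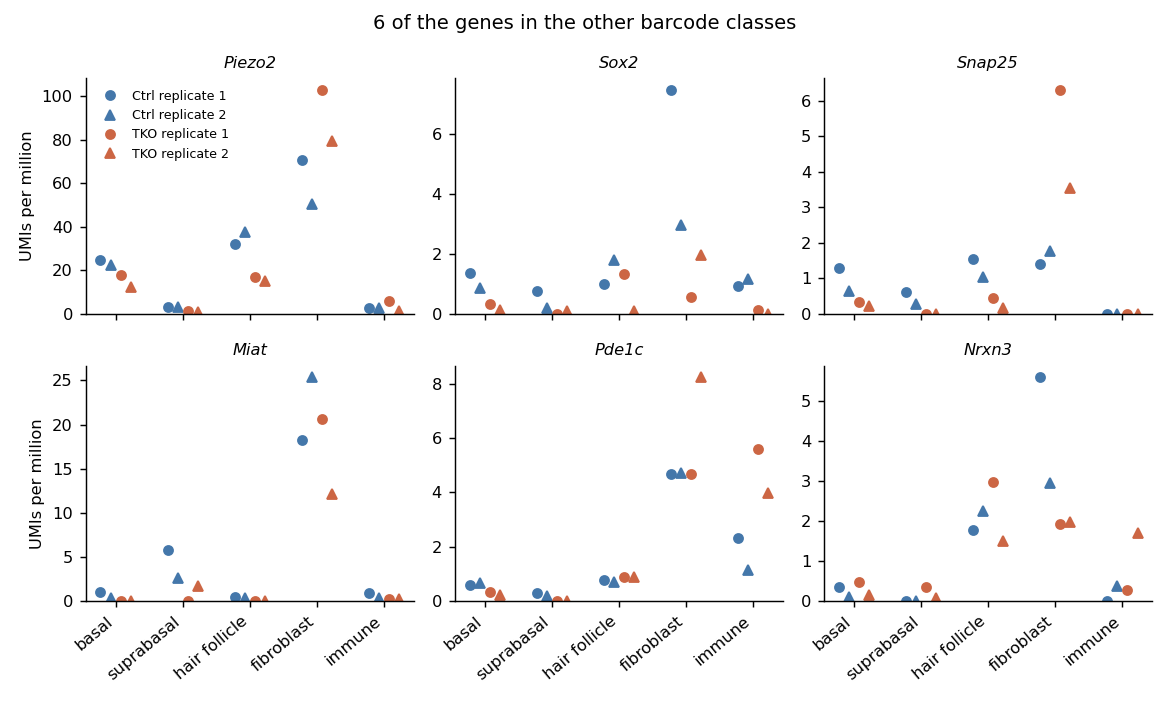
Levels of Piezo2, Sox2, Snap25, Miat, Pde1c and Nrxn3 (CPM, linear axes from 0) in each library, in 3 ranges of epithelial barcodes without the Merkel-like ones and in fibroblast and immune barcodes. Piezo2 is lower in both TKO libraries in each epithelial range and higher in fibroblasts.

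Within Ctrl, the Merkel-like barcodes differed among themselves. The 62 that had at least 5 of the genes, 33 and 29 per library, are described here with a median depth of 17733 and 13941 UMIs. Ccer2 and Miat had a UMI in all 62, Sox2 and Piezo2 in 61, Pde1c in 60 and Atoh1 in 59. Snap25 was present in 50, Isl1 in 42, Krt20 in 26 and Nrxn3 in 21. The median UMIs per barcode were 213 for Ccer2, 21.5 for Miat, 19.0 for Pde1c, 10.5 for Piezo2, 7.0 for Atoh1 and 6.0 for Sox2. The first 6 genes were thus shared by nearly the whole set and the last 3 by part of it.

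Among these 62 barcodes, Krt20 and Nrxn3 lay almost wholly within those that had Isl1. All 21 barcodes with Nrxn3 also had Isl1 and Atoh1, and 25 of the 26 with Krt20 had Isl1. Between Krt20 and Nrxn3 the overlap was partial, with 17 barcodes holding both, 9 only Krt20 and 4 only Nrxn3. Of the 41 without Nrxn3, 21 had Isl1. The Nrxn3 UMIs were not evenly spread among barcodes that had any, with up to 265 and 166 per barcode and medians of 85.0 and 26.0. In the separate Ctrl libraries, 11 and 10 of these barcodes had Nrxn3 together with Isl1 and 0 and 0 had Nrxn3 without it. Outside this set, some Merkel-like barcodes of both Ctrl libraries with 3 or 4 of the genes had 1 or 2 UMIs of Nrxn3 and 0 of Isl1.

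Barcodes with Isl1 had more of the touch and keratin genes, both in medians per barcode and in pooled CPM. Piezo2 had a median of 19.5 and 13.0 UMIs in the 20 and 22 barcodes with Isl1 and 8.0 and 6.0 in the 13 and 7 without, and its pooled level was 1174 and 971 CPM against 275 and 278. The median of Ccer2 was 331 and 192 UMIs with Isl1 against 164 and 129 without (16265 and 13468 against 4514 and 6192 CPM), and that of Krt8 43.5 and 28.5 against 14.0 and 15.0 (2036 and 1571 against 565 and 727 CPM). For Snap25 the medians were 4.5 and 5.0 against 1.0 and 2.0 UMIs, and for Krt18, the partner of Krt8, 14.0 and 8.0 against 1.0 and 0. The median depth was 18088 and 13436 UMIs with Isl1 and 14756 and 17680 without, so the order of depth was not the same in both libraries. Pooled CPM weighs deep barcodes most, and the deepest one without Isl1 held 97194 and 51314 UMIs, against 41796 and 56583 with Isl1. The differences are a description, since the same barcodes were split and measured.

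Atoh1 and Sox2 differed less between those barcodes. The median of Atoh1 was 10.0 and 6.5 UMIs with Isl1 and 7.0 and 5.0 without (433 and 397 against 209 and 237 CPM). That of Sox2 was 9.5 and 5.0 against 5.0 and 5.0, equal in Ctrl replicate 2, although its pooled level was 415 and 357 against 207 and 266 CPM. Miat had medians of 34.5 and 18.5 UMIs against 22.0 and 17.0. The median Krt14 count, the keratin of basal progenitors, was 1.0 and 1.5 UMIs per barcode with Isl1 and 3.0 and 12.0 without.

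**Figure D5:**
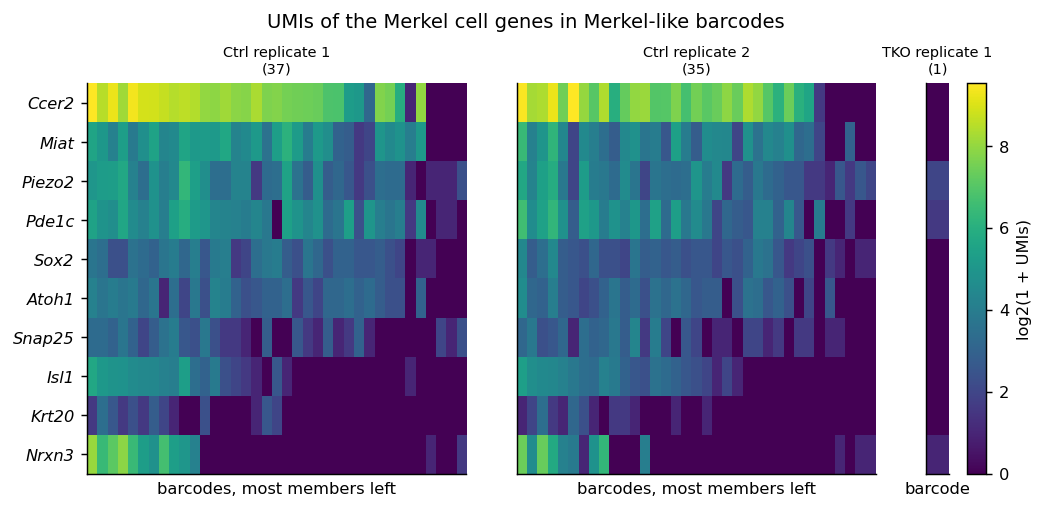
UMIs of the 10 genes (rows, colour as log2 of 1 + UMIs) in each Merkel-like barcode (columns), with 37 of Ctrl replicate 1, 35 of Ctrl replicate 2 and 1 of TKO replicate 1, ordered by the number of genes detected. Ccer2, Miat, Piezo2, Pde1c, Sox2 and Atoh1 fill most Ctrl columns, Isl1, Krt20 and Nrxn3 mainly the left part, and the TKO column holds 3, 2 and 1 UMIs of Piezo2, Pde1c and Nrxn3.

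Other genes of the Merkel lineage were read from lists. Of 8 other Merkel transcription factors, Pou4f3, Insm1, Lhx3, Nhlh1 and Gfi1 had most of their Ctrl UMIs in Merkel-like barcodes, and all but Pou4f3 passed the filter on low counts only with those barcodes in. Their differences over all epithelial barcodes restate the missing barcodes and are given as a description. Pou4f3 had 508 of 511 and 466 of 470 Ctrl UMIs inside and went from 6.99 and 7.59 CPM to 0.300 and 0.232. Insm1, a zinc finger factor of endocrine and sensory cells, had 165 of 170 and 120 of 125 inside and went from 2.32 and 2.02 CPM to 0.0562 and 0.0357. Lhx3 had 110 and 48 UMIs in Ctrl against 1 and 0 in TKO, Nhlh1 45 and 42 against 1 and 1, and Gfi1 25 and 25 against 2 and 3. Hes6 and Sox21, which other epithelial barcodes express, did not pass the test. Without the Merkel-like barcodes 3 of the 8 could be fitted and none was called.

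Of 4 simple epithelial keratins, only Krt8 was past the threshold over all epithelial barcodes, in the lower direction, where 2.27% of all genes were. Krt8 is in the keratin panel that called barcodes epithelial, and most of its Ctrl UMIs lay in Merkel-like barcodes. Its difference over all epithelial barcodes is therefore given as a description. Krt8 had 1203 and 881 UMIs in Ctrl, 1095 and 800 of them in Merkel-like barcodes, against 103 and 74 in TKO (edgeR log2 change -3.25, SE 0.24). Without the Merkel-like barcodes its edgeR log2 change was 0.18 (SE 0.28, adjusted p 0.751). With a keratin minimum of 300 CPM in place of 1000, chosen after the data were seen, the Krt8 call over all epithelial barcodes was lost at a log2 change of -2.52.

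Of 21 secretion and synapse genes, 19 were fitted, 2 were called lower and 1 higher, where 2.27% and 3.93% of all genes were. The list had a median log2 change of -0.64 against -0.02 over all genes, and of -0.07 without the Merkel-like barcodes. The synaptic vesicle GTPase Rab3c, 1 of the 2, had 275 of 281 and 237 of 245 Ctrl UMIs in Merkel-like barcodes, and its 3.84 and 3.95 CPM in Ctrl against 0.675 and 0.357 in TKO are a description because nearly all of its Ctrl UMIs lay inside. The calcium sensor Syt7 went from 4.27 and 5.12 CPM to 2.17 and 1.48 (edgeR log2 change -1.37, SE 0.26, adjusted p 0.045), and without the Merkel-like barcodes it was not called (log2 change -0.64, SE 0.30, adjusted p 0.275). Pcsk2, a prohormone convertase, rose from 28.3 and 34.0 to 109 and 73.4 CPM (log2 change 1.53, SE 0.19, adjusted p 0.0177), and 11 and 27 of its 2067 and 2108 Ctrl UMIs were in Merkel-like barcodes. The call of Syt7 was lost when any single library other than TKO replicate 1 was left out, with no filter on low counts and with the replicate number as a block, and that of Pcsk2 without Ctrl replicate 2.

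Among 7 neuropeptides only Penk, the precursor of enkephalins, had enough counts to be fitted. It fell from 78.6 and 112 CPM to 38.5 and 30.4 (edgeR log2 change -1.48, SE 0.19, adjusted p 0.0183), and did so without the Merkel-like barcodes as well (log2 change -1.46, SE 0.19, adjusted p 0.0208). Of its Ctrl UMIs, 242 of 5751 and 203 of 6909 were in Merkel-like barcodes.

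Of 12 calcium and ion channel genes, 9 were fitted and 1 was called, in the higher direction, where 3.93% of all genes were. Kcnd2, a voltage-gated potassium channel, had 930 of 1055 and 706 of 838 Ctrl UMIs in Merkel-like barcodes, yet rose in TKO from 14.4 and 13.5 to 59.9 and 30.4 CPM (edgeR log2 change 1.67, SE 0.30, adjusted p 0.0407). Outside the Merkel-like barcodes it rose from 1.73 and 2.16 to 59.8 and 30.4 CPM (log2 change 4.51, SE 0.36, adjusted p 0.0066). Piezo1, the relative of Piezo2, was at 33.1 and 36.7 CPM outside in Ctrl and 33.2 and 30.3 in TKO and was not called. The call of Kcnd2 over all epithelial barcodes was lost without either Ctrl library, with no filter on low counts and with the lower keratin minimum.

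Signals and repressors of the lineage were mostly not called, and their counts stand beside the 3.93% of all genes called higher in the same fit. Of 10 Notch pathway and Id genes, 1 rose, Id1, an inhibitor of basic helix-loop-helix factors, from 65.3 and 96.3 to 181 and 162 CPM (edgeR log2 change 1.08, SE 0.18, adjusted p 0.0345). None of 10 Polycomb genes was called, with a median log2 change of -0.07. Of 12 hair placode and hedgehog genes 2 rose. The receptor Eda2r went from 1.01 and 0.613 to 11.01 and 9.91 CPM (log2 change 3.66, SE 0.30, adjusted p 0.0062) and the Wnt inhibitor Dkk4 from 12.7 and 16.49 to 29.2 and 36.0 (log2 change 1.15, SE 0.18, adjusted p 0.0312). The calls of Id1 and Dkk4 were lost with no filter on low counts, that of Id1 also without TKO replicate 1, and that of Dkk4 without either Ctrl library and at 5000 UMIs per barcode.

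The genes whose Ctrl UMIs were most confined to Merkel-like barcodes were ranked among 13159 genes with at least 100 epithelial UMIs in each Ctrl library. Krt20 was below that limit. The median gene had 1.15% of its UMIs there and 46 genes had over 50% in both libraries. Ccer2, Atoh1, Isl1 and Pde1c ranked 1, 4, 5 and 9, and Nrxn3, Miat, Sox2 and Snap25 ranked 12, 24, 31 and 37, with Piezo2 at 75. The 8 other genes with the highest shares, over 2 libraries, were Pou4f3, Fstl4, Rab3c, Insm1, Atp8a2, Galnt17, Tlx3 and Zfp536, at 92.3% or more.

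These 8 genes were chosen for having nearly all Ctrl UMIs in Merkel-like barcodes, of which TKO had 1 and 0. Lower totals in TKO follow from that choice, so they are given as a description. The phospholipid flippase gene Atp8a2 had 647 and 551 UMIs over all epithelial barcodes of Ctrl against 8 and 15 in TKO, and Tlx3, a homeobox factor of sensory neurons, 221 and 186 against 2 and 0. Galnt17, a glycosyltransferase gene, had 415 and 294 against 13 and 1. Fstl4, which encodes a follistatin-like protein, had 309 and 140 against 39 and 65, the smallest relative gap of these 4.

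Outside the Merkel-like barcodes the choice works the other way, since it favours genes with few Ctrl UMIs there and sets no such limit on TKO. Those values are likewise a description. Fstl4 had 4 and 1 UMIs outside in Ctrl against 39 and 65 in TKO, Pou4f3 had 3 and 4 against 16 and 13, and Rab3c 6 and 8 against 36 and 20. Atp8a2 had 27 and 14 against 8 and 15, and its groups overlapped. Of the 10 Merkel cell genes, 7 were fitted without the Merkel-like barcodes and none of these was called higher, where 3.57% of all genes were. Atoh1, Isl1 and Krt20 were not fitted. The 10 genes were chosen with this contrast known, so the lack of higher calls is no test of them.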

How the data were processed

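Single-cell libraries (10x Chromium 3′ v3) of Epcam+ α6+ sorted cells were analysed, 2 Ctrl and 2 TKO. The authors deposited unnormalized UMI counts per gene and barcode on GRCm39. The file headers name Cell Ranger 7.1.0, which is not the version in the study's methods. Barcodes with at least 2000 genes and under 10% mitochondrial UMIs were kept. They were called epithelial at 1000 CPM or more of 8 keratins unless at least 5 of 8 markers of another type were present. Krt8 and Krt18 were among the 8 keratins. Limits were placed on pooled distributions after the data were seen, without genotype: 167 of 11221 barcodes lay within 1.5 times of the keratin limit, and 264 and 807 of 9362 within 1.5 times of the suprabasal (10000 CPM) and hair follicle (500 CPM) limits. Doublets were kept. Leaving out the highest Scrublet-type scores (0.8% per 1000 barcodes) was an alternative.

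UMIs were summed per library and tested with edgeR 4.0.16 (quasi-likelihood, TMM, filterByExpr, genotype as the only term) on R 4.3.3, with Benjamini-Hochberg adjusted p under 0.05 over all genes. The step was tested on simulated data. Alternatives included DESeq2 1.42.0 size factors and Wald test, other filters, leaving out each library and a replicate block. Deviations of same-numbered libraries correlated at -0.28 over 20064 genes, so the numbers do not pair them. Shares carry Clopper-Pearson intervals of 95%, counts Poisson intervals. Tables used Python 3.11.15 and scanpy 1.11.5.

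The 10 genes and the wider lists were chosen with earlier results of these data known. Besides the 10, the genes named are up to 4 called genes per list with the largest change and the 8 most confined to Merkel-like barcodes. Gfi1, Hes6, Sox21 and Piezo1 were named after their values were seen.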

Additional observations from a re-analysis of the deposited data

Results flagged for a closer look

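These values lie in barcodes outside the epithelium, which the comparisons above use only as background, and in each the TKO libraries were both above the Ctrl libraries. Their differences were not tested. Piezo2 in fibroblast barcodes was 1.51-fold higher in TKO, at 70.5 and 50.2 CPM in Ctrl and 103 and 79.4 in TKO. Snap25 in fibroblast barcodes was 3.11-fold higher, from 3 and 3 UMIs in Ctrl against 23 and 9 in TKO. Pde1c in immune barcodes was 2.76-fold higher, from 5 and 3 UMIs in 93 and 140 Ctrl barcodes and 42 and 42 UMIs in 314 and 440 TKO barcodes. Pde1c in melanocyte barcodes was 2.77-fold higher, at 66.7 and 35.1 CPM in Ctrl and 111 and 171 in TKO, but the Ctrl values rest on 4 and 2 barcodes against 29 and 18.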

How the results depend on the processing

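The difference in the Merkel-like share, -1.17 percentage points (TKO minus Ctrl), was below 0 under every alternative run. It moved by more than the replicate spread to -2.65 with at least 2 genes, -1.04 with at least 5, -1.01 at 5000 UMIs per barcode, -0.905 over all deposited barcodes and -0.64 with 3 independent markers. Leaving out a library gave -1.25 to -1.10. The log2 changes of the 10 genes over epithelial barcodes were below 0 in 130 of 130 alternative fits, but 17 of these moved by more than the replicate spread. Isl1 was at -6.30 with 5000 UMIs per barcode and Miat at -9.30 without TKO replicate 2. Isl1 at -11.11 without TKO replicate 2 and Ccer2 at -13.92 with 5000 UMIs were set against TKO counts of 0, so that these values depend on the prior count. Outside Merkel-like barcodes 95 of 103 were below 0 and 8 moved by more than that spread. The count of 8 genes lower outside ran from 6 to 9.

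The number of called genes was less stable. Over epithelial barcodes the 1243 calls became 2537 with DESeq2's Wald test, 517 with no filter and 318 to 1582 without one library (leaving out Ctrl replicate 1 gave 629 and Ctrl replicate 2 gave 318). Without Merkel-like barcodes the 1062 calls became 2402 with DESeq2, 645 in barcodes with no UMI of the 10 genes and 440 to 1065 without one library (Ctrl replicate 1 gave 600, Ctrl replicate 2 gave 440 and TKO replicate 1 gave 474). With the replicate number as a block there were 903 and 790 calls, and of the named calls it ended that of Syt7 and no other. Crossed pairing as a block, chosen after seeing the data, gave 2982 and 2931 calls. Without Merkel-like barcodes the log2 change of Krt8 ran from -0.084 (without TKO replicate 1) to 0.42 and that of Galnt17 from -3.47 to 0.12 (without TKO replicate 2) when a library was left out. Krt8 was at -0.13 with barcodes of 3 independent markers also left out. The cause was not tested. Depth limits Krt20 and Atoh1 outside, with 0 to 15 UMIs per library.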
